A study of Mus musculus with 4 samples.

Results

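Fatty acid and triglyceride synthesis was followed at 10 genes, Acly, Acaca, Fasn, Elovl6, Scd1, Gpam, Lpin1, Dgat2, Srebf1 and Cd36, among 21911 protein-coding mouse genes. All called peaks annotated to one of the 10 genes were taken, together with peaks annotated to any other gene that lay within 50 kb of the gene's start. This gave 25 of 4291 peaks for GR replicate 1, 32 of 7334 for GR replicate 2, 19 of 4028 for E2A replicate 1 and 2 of 1892 for E2A replicate 2. The study mapped binding of the glucocorticoid receptor (GR) and of the E2A proteins by ChIP-Seq, which sequences the DNA recovered with an antibody from cross-linked chromatin, and asked whether both occupy the same enhancers and promoters in liver. Both groups consist of 2 livers from male C57BL/6 mice of genotype E47+/+ on a chow diet, taken at ZT10, which is 10 h after lights on. Mice were 10 to 16 weeks old in all experiments of the study. The study describes the E2A ChIP as made from the livers used for GR, so GR and E2A samples share animals, but the labels do not say which sample belongs to which animal. The GR antibody was a rabbit antibody from Proteintech, and the E2A antibody a rabbit antibody from Santa Cruz. The labels call the animals untreated, and the study's results describe late-afternoon livers, when endogenous corticosterone rises, without naming a treatment. The study's own description of its peak table instead calls the livers Dex-treated, so whether the mice had received dexamethasone is not settled here.

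The description attached to each E2A sample names a GR ChIP, and for replicate 2 it also names E47-/- mice. Groups were set by the title, the antibody and the genotype of each sample, which give E2A in wild-type mice. E2A replicate 2 also had the shortest list and only 2 peaks at the 10 genes, both of them at places that were also called in E2A replicate 1. Statements on E2A therefore rest almost entirely on replicate 1, and values without each E2A sample are given where they matter. The lists hold positions without heights or read counts, so a peak is present or absent and nothing is known of how strongly a site was bound. In whole liver, a site bound in all hepatocytes and one bound in part of the cells cannot be told apart. By the annotated gene, GR peaks were listed at 10 of 10 hepatocyte marker genes, 2 of 7 immune marker genes and 2 of 5 endothelial or stellate marker genes, and E2A peaks at 9 of 10, 0 of 7 and 0 of 5. By the same rule 23.4% of all genes had a GR peak and 13.8% an E2A peak. The immune count of GR (28.6%) was near the share of all genes and the endothelial or stellate count (40%) above it. The hepatocyte markers (100%) thus stood apart in GR, whereas GR peaks at the few other markers do not separate immune from endothelial or stellate cells.

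The liver makes fatty acids from citrate that leaves the mitochondria, lengthens and desaturates them, and joins them to glycerol to form triglyceride for storage or for export in lipoproteins. Insulin drives this programme largely through the transcription factor SREBP-1c, a product of Srebf1, and glucocorticoids are known to act on hepatic fat storage as well. GR binds DNA as a dimer at a palindromic response element (GRE) in which half-sites of the type ACA and TGT are held apart by a short spacer. E2A, the gene also called Tcf3, encodes the splice forms E12 and E47, which bind E-Boxes of the type CANNTG.

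Every one of the 10 genes had a GR peak in at least 1 replicate, whereas 45.3% of all protein-coding genes did. Likewise each had an E2A peak in at least 1 replicate, against 30.1% of all genes, and 25.7% of all genes had both. A GR region called in both replicates was found at 7 genes, all but Acaca, Elovl6 and Cd36 (19.5% of all genes). An E2A region called in both replicates was found at 2 genes, Srebf1 and Cd36 (10.5% of all genes). GR and E2A peaks sharing at least 1 bp, here called a shared region, occurred at 8 of the 10 genes and at 20.3% of all genes, and the exceptions were Fasn and Dgat2. Counted by the annotated gene alone, 10 genes had a GR peak (23.4% of all genes) and 8 had an E2A peak (13.8% of all genes), with Srebf1 and Dgat2 dropping out.

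The replicates contributed unequally. GR replicate 1 had a peak at 8 genes (24.8% of all genes) and GR replicate 2 at all 10 (43.0%). E2A replicate 1 had a peak at all 10 (27.7%) and E2A replicate 2 at 2 (14.6%). Without E2A replicate 1, the number of genes with a shared region was 2, and without GR replicate 2 it was 4. Per 1000 peaks of a sample, 5.83 and 4.36 GR peaks and 4.72 and 1.06 E2A peaks lay at these genes. The difference of 2.21 per 1000 between GR and E2A was within the spread of the samples (exact permutation test without pairing, two-sided, p = 0.667, n = 2 per group, where the smallest p possible is 0.333). It was 0.378 per 1000 without E2A replicate 2 and 4.04 without E2A replicate 1.

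**Figure D1:**
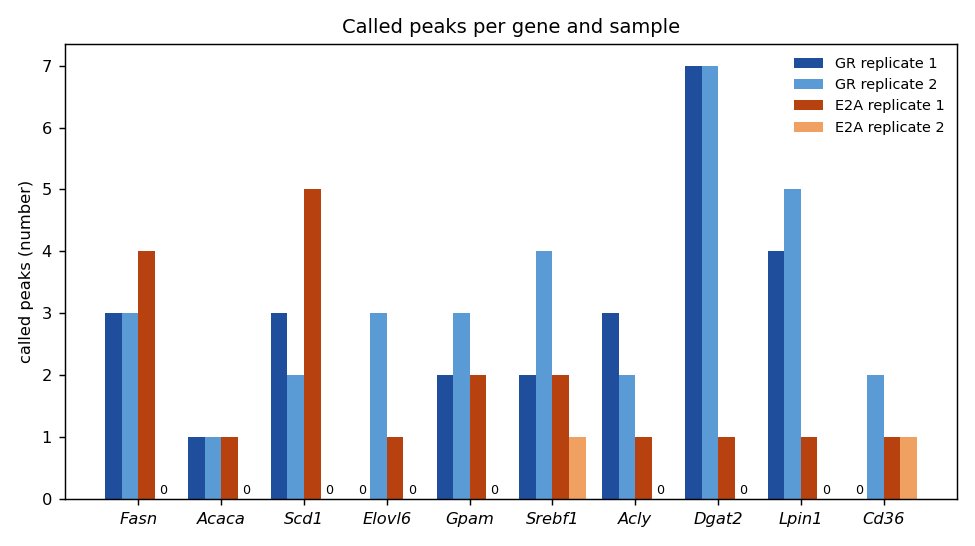
Number of called peaks at each of the 10 genes (y axis) in each of the 4 samples (bars). A 0 marks a sample without a peak. Dgat2 has 7 peaks in each GR replicate and 1 E2A peak, Scd1 has 5 E2A peaks in replicate 1, and E2A replicate 2 has a peak at Srebf1 and Cd36 only.

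Overlapping peaks (1 bp or more) of the replicates of each ChIP were merged, which gave 39 GR regions and 19 E2A regions at the 10 genes, which together occupied 48 places. GR and E2A met at 10 places, GR was called without E2A at 29, and E2A without GR at 9. All 9 of the latter came from E2A replicate 1 alone, and 12.5% of the 10755 places genome-wide were of this kind. GR was called in both replicates without E2A at 14 of the 48 places (13.6% genome-wide), and at 4 of the 10 shared places. Of the GR regions, 25.6% met an E2A region (95% Wilson interval 14.6 to 41.1%, counting error only), beside 30.7% of the 8795 GR regions genome-wide, and without E2A replicate 1 the share at the 10 genes was 5.13%. Among GR regions called in both replicates, 4 of 18 met an E2A region (22.2%, 9.0 to 45.2%), and genome-wide 46.5% did. Of the E2A regions, 52.6% met a GR region (31.7 to 72.7%), and 58.1% did genome-wide. Without GR replicate 2 that share at the 10 genes was 26.3%. Both E2A regions called in both replicates met GR, as did 71.7% of such regions genome-wide. At the shared places the centres of the GR and E2A calls lay 1 to 323 bp apart, with a median of 82.5 bp. Only 1 place, in Srebf1, was called in all 4 samples.

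**Figure D2:**
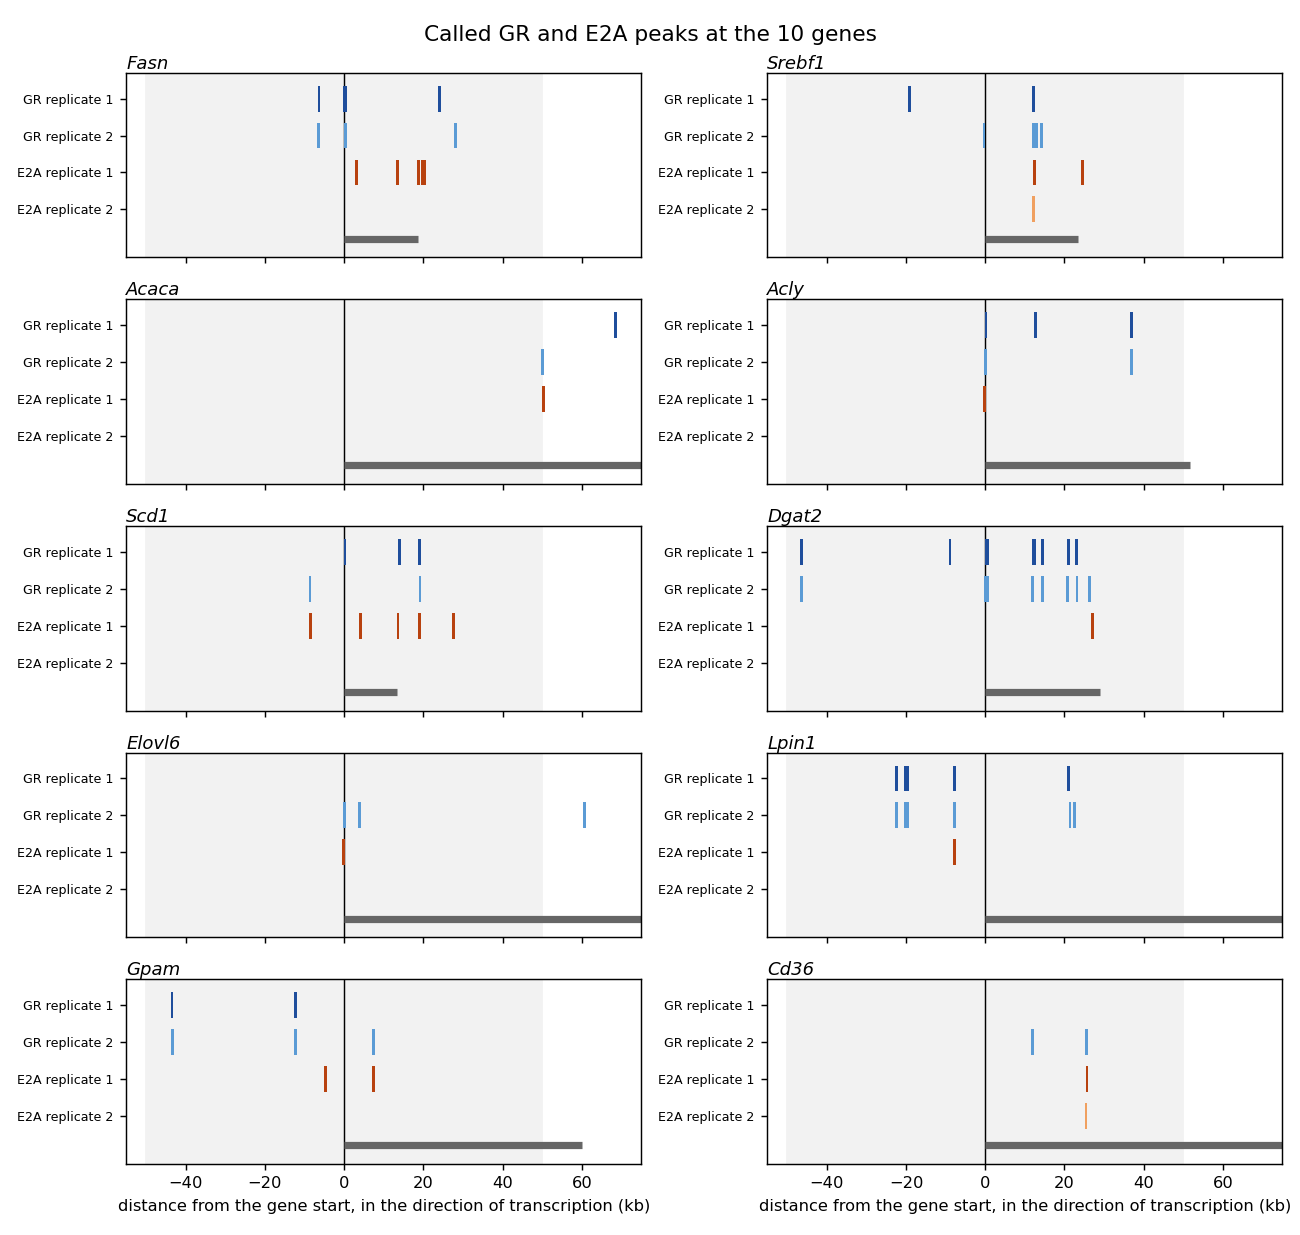
Called peaks of the 4 samples (rows, coloured bars) by distance in kb from the start of each gene, with positive values in the direction of transcription. The vertical line marks the gene start, the lower grey bar the gene body (cut at the panel edge) and the shading 50 kb to each side, and peaks narrower than 0.7 kb are drawn 0.7 kb wide. GR and E2A bars are stacked at 10 places, whereas Fasn and Dgat2 have none in common.

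Acly codes for ATP citrate lyase, which supplies cytosolic acetyl-CoA from citrate (chr11:100476353-100528000, minus strand, mm10). The GR replicates had 3 and 2 peaks, E2A replicate 1 had 1 and E2A replicate 2 had 0. GR and E2A met at the promoter, where the calls were chr11:100527612-100527985 for GR replicate 1, chr11:100527622-100528386 for GR replicate 2 and chr11:100527916-100528479 for E2A replicate 1. A further GR region inside the gene, at chr11:100490869-100491178 in replicate 2, was called in both replicates without E2A, and another at chr11:100515104-100515371 in GR replicate 1 alone. The promoter bases that precede the RefSeq start are shown because the GR replicate 2 and E2A replicate 1 calls both cover them. They hold a GRE match with 2 mismatches and no E-Box of the type CANNTG. An E-Box lies just beyond them within the E2A replicate 1 call, at chr11:100528280-100528285.
Acly promoter, RefSeq, GRCm38.p6 (the assembly of mm10), chr11:100528001-100528250, minus strand: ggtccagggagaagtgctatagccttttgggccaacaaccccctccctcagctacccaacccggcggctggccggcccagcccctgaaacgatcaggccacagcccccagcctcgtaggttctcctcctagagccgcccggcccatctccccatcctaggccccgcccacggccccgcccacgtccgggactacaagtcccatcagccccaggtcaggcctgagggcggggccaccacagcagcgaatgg

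Acaca codes for acetyl-CoA carboxylase, which makes malonyl-CoA in the committed step of the pathway, and is long (chr11:84129672-84401651, plus strand). GR replicates 1 and 2 and E2A replicate 1 had 1 peak each, and E2A replicate 2 had 0. The GR replicate 2 peak (chr11:84179435-84179996) and the E2A peak (chr11:84179567-84180288) overlapped inside the gene. The place they span covers a later protein-coding transcript start of Acaca in GENCODE, whereas the deposited annotation calls both peaks intronic. The E2A peak lay 49895 bp from the gene start, just within the 50 kb limit. The GR replicate 1 peak (chr11:84198021-84198393) lay 68349 bp from it and was included because it was annotated to Acaca. No region at Acaca was called in both GR replicates.

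Fasn codes for fatty acid synthase, the enzyme that builds palmitate from malonyl-CoA (chr11:120805846-120824547, minus strand). Both GR replicates had 3 peaks, E2A replicate 1 had 4 and E2A replicate 2 had 0, yet none of the GR and E2A peaks overlapped. GR was called over the promoter in both replicates (chr11:120823866-120824741 and chr11:120823775-120824551) and again upstream, in an intron of the neighbouring gene, at chr11:120830642-120831112 in replicate 1. The 4 E2A peaks lay downstream of the promoter. Those at chr11:120820989-120821748 and chr11:120810888-120811220 were annotated to exons of Fasn, and the remaining pair, chr11:120803819-120805237 and chr11:120805509-120805937, to the region just past its end. The annotated gene of that pair was the neighbour Dus1l. Further GR peaks annotated to Dus1l lay at chr11:120796262-120796734 in replicate 2, at its promoter, and at chr11:120800246-120800537 in replicate 1.

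Both genes that modify the newly made chain had a shared region. Elovl6 codes for the elongase that carries palmitate to stearate (chr3:129532355-129638495, plus strand). There were 0 peaks in GR replicate 1 and 3 in GR replicate 2, whereas E2A replicate 1 had 1 peak and E2A replicate 2 had 0. The E2A peak (chr3:129531908-129532413) and a GR replicate 2 peak (chr3:129532247-129532629) met over the gene start. The other two GR peaks were intronic, and the farther of them, 60586 bp from the start, was kept because it was annotated to Elovl6. None of the GR peaks at Elovl6 was called in both replicates.

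Scd1 codes for the stearoyl-CoA desaturase that makes monounsaturated fatty acids (chr19:44394455-44407879, minus strand). It had 3 peaks in GR replicate 1, 2 in GR replicate 2, 5 in E2A replicate 1 and 0 in E2A replicate 2. Scd1 had the most E2A regions of the 10 genes and 3 shared regions, more than any other of the 10. The region called in 3 samples lay 18482 to 18755 bp past the annotated start, downstream of the gene, at chr19:44388488-44389227 in GR replicate 1. The promoter itself carried only a GR replicate 1 peak (chr19:44407477-44407731). A further shared region lay upstream, called at chr19:44416330-44416618 in GR replicate 2 and chr19:44416190-44416585 in E2A replicate 1. The centre of the bases common to both calls is shown because it carries an E-Box, given in capitals, in a region where GR and E2A met. The same central window of the Scd1 region called in 3 samples holds no E-Box. Nor do those of the shared places at Acaca, Elovl6, Acly and Lpin1.
Scd1 upstream region, mm10, chr19:44416358-44416557, plus strand: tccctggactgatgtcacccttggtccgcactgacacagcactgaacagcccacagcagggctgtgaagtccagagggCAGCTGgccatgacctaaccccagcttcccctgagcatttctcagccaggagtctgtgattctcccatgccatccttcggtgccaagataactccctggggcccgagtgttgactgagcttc

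The genes that assemble triglyceride had more GR than E2A regions, 3 against 2 at Gpam, 5 against 1 at Lpin1 and 8 against 1 at Dgat2. The same held at Acly, Acaca, Elovl6, Srebf1 and Cd36, but not at Fasn and Scd1. Genome-wide there were also more GR than E2A regions, 8795 against 4783. Gpam codes for the mitochondrial glycerol-3-phosphate acyltransferase that adds the first acyl chain (chr19:55067268-55127238, minus strand). Peaks numbered 2 in GR replicate 1, 3 in GR replicate 2, 2 in E2A replicate 1 and 0 in E2A replicate 2. The calls of GR replicate 2 (chr19:55119707-55119983) and E2A replicate 1 (chr19:55119666-55119952) coincided in the first intron, and E2A replicate 1 was called alone at chr19:55131648-55132050 upstream. A pair of upstream GR regions, at chr19:55139280-55139608 and chr19:55170422-55170826 in GR replicate 1, were called in both replicates without E2A. The farther one was annotated to the neighbouring gene Tectb and began 43184 bp from the Gpam start, and the nearest peak outside the limit lay 65366 bp away.

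Lpin1 codes for lipin 1, the phosphatidate phosphatase that yields diacylglycerol (chr12:16535669-16610966, minus strand). The GR replicates had 4 and 5 peaks at Lpin1, E2A replicate 1 had 1 and E2A replicate 2 had 0. Of the 5 GR regions, 4 were called in both replicates. The only shared region lay upstream, at chr12:16618336-16619214 in GR replicate 1, chr12:16618346-16618983 in GR replicate 2 and chr12:16618609-16618939 in E2A replicate 1. Farther upstream, GR was called in both replicates without E2A at chr12:16630104-16631535 and chr12:16633230-16633628 (coordinates of replicate 1), and both were annotated to Ntsr2. A GR region annotated as the Lpin1 promoter at chr12:16589513-16590219 lies inside the GENCODE gene, because the deposited annotation counts from a later transcript start.

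Dgat2 codes for the acyltransferase that adds the last acyl chain of triglyceride (chr7:99153658-99182719, minus strand). Both GR replicates had 7 peaks, E2A replicate 1 had 1 and E2A replicate 2 had 0. Its 8 GR regions, some annotated only to the neighbours Uvrag or Mogat2, were the most of the 10 genes. Counted by the same rule, 99.4% of all genes had fewer or as many. Of the 8 regions, 6 were called in both replicates, from the promoter (chr7:99181891-99182767 in replicate 1) through the introns to a region upstream inside Mogat2. None met the E2A peak, which lay at chr7:99155499-99155844 in the last intron, short of the nearest GR call at chr7:99156343-99156665. To show what such places look like, regions with GR alone in both replicates (Dgat2, Lpin1) are set beside shared regions (Lpin1, Gpam), and capitals mark E-Boxes of the type CANNTG, half-site pairs ACANNNTGT and C/EBP-type sequences TTGCNNAA. Both E-Boxes of the Dgat2 intron lie in a region without an E2A call, the Lpin1 region called by both antibodies has no marked sequence, and the Gpam region has an E-Box and a C/EBP-type match.
Dgat2 intron, GR in both replicates, mm10, chr7:99168094-99168293, plus strand: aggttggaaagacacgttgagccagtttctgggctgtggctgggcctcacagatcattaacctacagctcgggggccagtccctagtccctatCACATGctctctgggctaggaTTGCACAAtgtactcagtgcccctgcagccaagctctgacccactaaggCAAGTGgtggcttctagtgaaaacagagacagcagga
Lpin1 upstream, GR in both replicates, mm10, chr12:16633317-16633516, plus strand: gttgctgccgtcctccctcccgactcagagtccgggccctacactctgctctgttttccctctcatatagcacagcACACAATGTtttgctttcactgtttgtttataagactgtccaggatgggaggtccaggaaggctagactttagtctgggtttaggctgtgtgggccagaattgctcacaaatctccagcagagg
Lpin1 upstream, both GR replicates and E2A replicate 1, mm10, chr12:16618675-16618874, plus strand: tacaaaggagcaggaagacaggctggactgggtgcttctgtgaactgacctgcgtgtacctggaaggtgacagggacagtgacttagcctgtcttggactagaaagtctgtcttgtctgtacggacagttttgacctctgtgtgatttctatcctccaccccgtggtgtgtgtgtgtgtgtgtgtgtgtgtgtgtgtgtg
Gpam first intron, GR replicate 2 and E2A replicate 1, mm10, chr19:55119730-55119929, plus strand: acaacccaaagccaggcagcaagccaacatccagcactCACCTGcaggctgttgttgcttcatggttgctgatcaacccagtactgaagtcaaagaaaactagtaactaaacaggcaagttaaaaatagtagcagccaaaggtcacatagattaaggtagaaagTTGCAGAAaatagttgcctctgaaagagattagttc

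Srebf1 codes for SREBP-1a and SREBP-1c, which start transcription from separate promoters and switch on the enzymes above (chr11:60199089-60222581, minus strand). GR replicate 1 had 2 peaks, GR replicate 2 had 4, E2A replicate 1 had 2 and E2A replicate 2 had 1. One place was called in all 4 samples, at chr11:60210195-60210535 in GR replicate 1, chr11:60210204-60210684 in GR replicate 2, chr11:60209991-60210496 in E2A replicate 1 and chr11:60210241-60210669 in E2A replicate 2. Genome-wide, 4.44% of 10755 such places were called in all 4 samples. The deposited annotation assigns it to a microRNA gene, Mir6922, in the first intron, and counted by the annotated gene alone Srebf1 would have no E2A peak. It overlaps a start that RefSeq gives for a shorter Srebf1 transcript. The bases upstream of that start, up to the end of the GR replicate 2 call, are shown because calls of all 4 samples reach into them, and they hold 1 E-Box. The E2A replicate 1 call ends at chr11:60210496, so it covers that E-Box but few of the other bases shown. The centre of the bases common to all 4 calls, chr11:60210269-60210468, is not shown and holds 2 other E-Boxes.
Srebf1 upstream of the downstream start, mm10, chr11:60210486-60210684, minus strand: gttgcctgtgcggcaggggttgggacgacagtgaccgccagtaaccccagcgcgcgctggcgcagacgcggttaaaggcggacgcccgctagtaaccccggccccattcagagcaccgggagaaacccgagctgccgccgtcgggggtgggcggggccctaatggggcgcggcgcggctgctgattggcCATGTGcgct

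Just before the upstream start of Srebf1, GR replicate 2 alone was called at chr11:60222694-60223117. The intronic GR replicate 2 calls at chr11:60208282-60208632 and chr11:60209144-60209899 lay close to the place called in all 4 samples without meeting it. E2A replicate 1 was also called alone at chr11:60197592-60198318, beyond the end of the gene.

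Cd36, which codes for a fatty acid translocase that takes up fatty acids, was the second gene with an E2A region called in both replicates (chr5:17781690-17888801, minus strand). No peak was called in GR replicate 1, whereas GR replicate 2 had 2 and the E2A replicates 1 each. The calls of GR replicate 2 (chr5:17863029-17863409), E2A replicate 1 (chr5:17862998-17863283) and E2A replicate 2 (chr5:17863182-17863526) met in the first intron, and the GR peak was thus present in 1 replicate only. No further peak in any sample lay nearer to the Cd36 start than 2189179 bp, apart from the intronic GR replicate 2 peak at chr5:17876733-17877076. The bases common to the 3 calls are shown because they are the other place of the 10 genes that both E2A samples called, and they hold 1 E-Box, in capitals.
Cd36 first intron, mm10, chr5:17863182-17863283, plus strand: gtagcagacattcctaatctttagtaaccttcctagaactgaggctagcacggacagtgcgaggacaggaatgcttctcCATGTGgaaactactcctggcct

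The number of GR regions varied from 2 at Acaca and Cd36 to 8 at Dgat2, with a median of 3.5. At least 4 GR regions were found at 5 genes, Fasn, Scd1, Srebf1, Lpin1 and Dgat2, and at 7.57% of all genes. The counts include regions annotated to other genes, such as Dus1l at Fasn, Mir6922 and Tom1l2 at Srebf1, and Uvrag and Mogat2 at Dgat2. All genes were counted by the same rule. Fasn and Scd1 had at least 4 E2A regions, as had 2.27% of all genes. A median of 0.5 other protein-coding starts lay within 50 kb of the starts of these genes, against 2 for all genes.

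By the deposited annotation, most of the regions lay outside promoters. Of the GR regions, 7 of 39 were annotated as promoter (17.9%, 95% Wilson interval 8.98 to 32.7%), against 50.4% of all GR regions, and of the E2A regions 2 of 19 were (10.5%, 2.94 to 31.4%), against 39.1% of all E2A regions. All peaks within 50 kb of a start enter this share, whichever gene they were annotated to. The Dus1l promoter, 27813 bp from the Fasn start, is thus counted. The shared places in Acaca and Srebf1 are labelled intronic although they cover protein-coding transcript starts. A GR region just before the Srebf1 gene start is labelled intergenic. In GR replicate 1 promoters held 20% of the peaks at the 10 genes and 34.3% of all peaks, and in GR replicate 2 they held 18.8% and 57.4%. Introns held 40% and 56.2% of the peaks at the 10 genes in GR replicates 1 and 2, and 31.4% and 18.1% of all peaks of these samples. In E2A replicate 1, promoters held 10.5% of the peaks at the 10 genes and 41.2% of all. The GR replicates thus differed widely in their promoter share over all peaks and little at these genes. GR regions were called in both replicates in 46.2% of cases at the 10 genes (31.6 to 61.4%) and in 31.1% of cases genome-wide, and E2A regions in 10.5% (2.94 to 31.4%) and 23.4%.

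**Figure D3:**
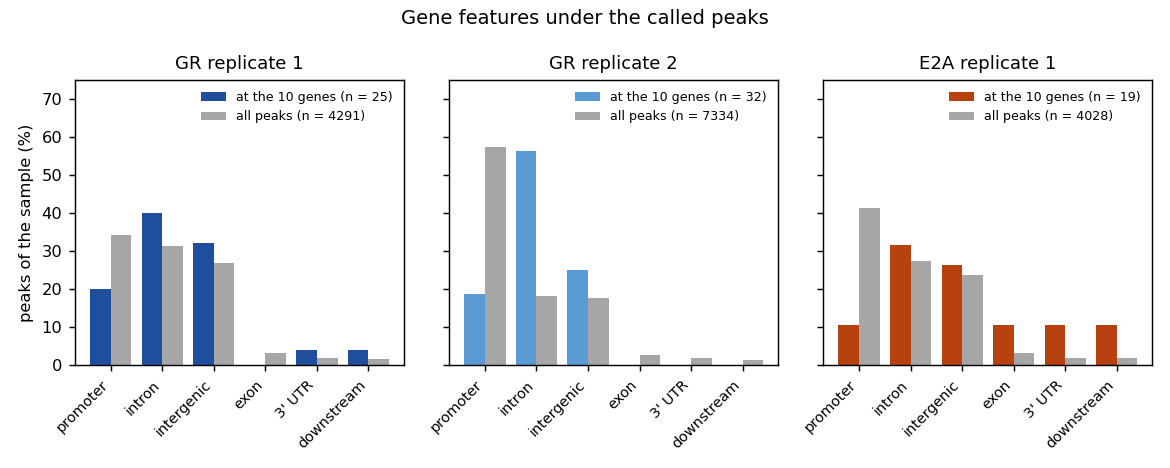
Share of called peaks (y axis, % of the peaks of a sample) by the annotated gene feature, at the 10 genes (coloured bars) and over all peaks of the sample (grey bars). Promoters take 20%, 18.8% and 10.5% of the peaks at the 10 genes, below the 34.3%, 57.4% and 41.2% of all peaks in the same samples, and E2A replicate 2 is left out because it has 2 peaks at these genes.

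Motifs were searched on both strands in the central 200 bp of each region, where E-Box letters (CANNTG) were found in 20 of 39 GR regions at the 10 genes (51.3%, 95% Wilson interval 36.2 to 66.1%) and in 55% of all GR regions. In E2A regions they were found in 13 of 19 (68.4%, 46.0 to 84.6%) and in 59.3% genome-wide. In GR regions not annotated as promoter the E-Box shares were 53.1% (36.4 to 69.1%) at the 10 genes and 68.4% genome-wide. For E2A regions not annotated as promoter they were 64.7% (41.3 to 82.7%) and 68.3%. The palindromic E-Box CACGTG, a subset of CANNTG, was found in 1 GR region, at Srebf1, and in 0 E2A regions. A GRE match, with up to 2 mismatches over 15 bases, was found in 11 of 39 GR regions (28.2%, 16.5 to 43.8%), against 17.7% of all GR regions. Since few of the regions at the 10 genes carry the promoter label, the same count was made over regions not annotated as promoter. There it was 28.1% at the 10 genes and 28.0% genome-wide. In E2A regions a GRE match was found in 3 of 19 (15.8%) and in 10.4% genome-wide. The exact half-site pair ACANNNTGT, which can be part of a GRE match, was found in 1 GR region (2.56%, against 9.43% genome-wide), the Lpin1 region shown above, and in the central 400 bp it was found in 4 (10.3%, against 13.7%).

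C/EBP-type sequences (TTGCNNAA), bound by a family of hepatocyte factors, were found in 11 of 39 GR regions (28.2%, 16.5 to 43.8%) and in 10.7% of all GR regions. Dgat2 and Gpam together held most of these 11 regions, and the interval treats regions of the same gene as independent. The stricter form TTGCGCAA was found in 0 of 39 GR regions (0.148% genome-wide). In regions not annotated as promoter the shares of TTGCNNAA were 31.2% (18 to 48.6%) and 16.9%. In E2A regions they were 15.8% and 15.1%. The sterol-element letters TCACNCCAC, of the kind that SREBP proteins bind, were found in 4 of 39 GR regions (10.3%, 4.06 to 23.6%), 2 of them at Dgat2 and 1 each at Srebf1 and Fasn, and in 0.864% of all GR regions. In regions not annotated as promoter the shares were 9.38% (3.24 to 24.2%) and 0.986%, and these include the Srebf1 region just before the gene start. None of the 19 E2A regions held these letters (0.857% genome-wide). For comparison, 1.05% of RefSeq promoters hold them in the 250 bases before the start. The 4 matches share the letter at the free position, as the sequences around them show, with the match in capitals.
Srebf1 upstream, GR replicate 2, mm10, chr11:60222849-60222878, minus strand: ctgacgccgcgTCACCCCACtcgggggcct
Fasn promoter region, both GR replicates, mm10, chr11:120824237-120824266, minus strand: gcgcgcgggcaTCACCCCACcggcggcggc
Dgat2 upstream, GR replicate 1, mm10, chr7:99191667-99191696, plus strand: taggttaaccTCACCCCACttgggaccaga
Dgat2 farther upstream in Mogat2, both GR replicates, mm10, chr7:99228970-99228999, minus strand: ctgaccacctcTCACCCCACtcctgtccct

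The remaining liver motifs were found in few of the central 200 bp windows. HNF4-type sequences (CAAAGTNCA) were found in 0 of 39 GR regions (2.74% genome-wide) and 0 of 19 E2A regions (3.32%), FOX-type sequences (TGTTTAC) in 1 GR region (3.63% genome-wide) and 1 E2A region (5.92%), and HNF6-type sequences (ATTGATT) in 2 GR regions (2.93% genome-wide) and 0 E2A regions (4.37%). The FOX-type share in GR regions turned with the window, since in the central 400 bp it was 5 of 39 (12.8%) at these genes and 6.50% genome-wide. Base composition did not move the same way in both ChIPs, with a median GC content of 54.0% in the GR regions at these genes and 56.5% genome-wide, and 57.0% and 53.0% in the E2A regions. A match describes letters in a window, and at most 39 regions stand behind each share. Promoter sequences were found in the RefSeq table for 8 of the 10 genes, and 66.2% of all RefSeq promoters hold CANNTG and 9.56% TTGCNNAA in the 250 bases before the start.

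**Figure D4:**
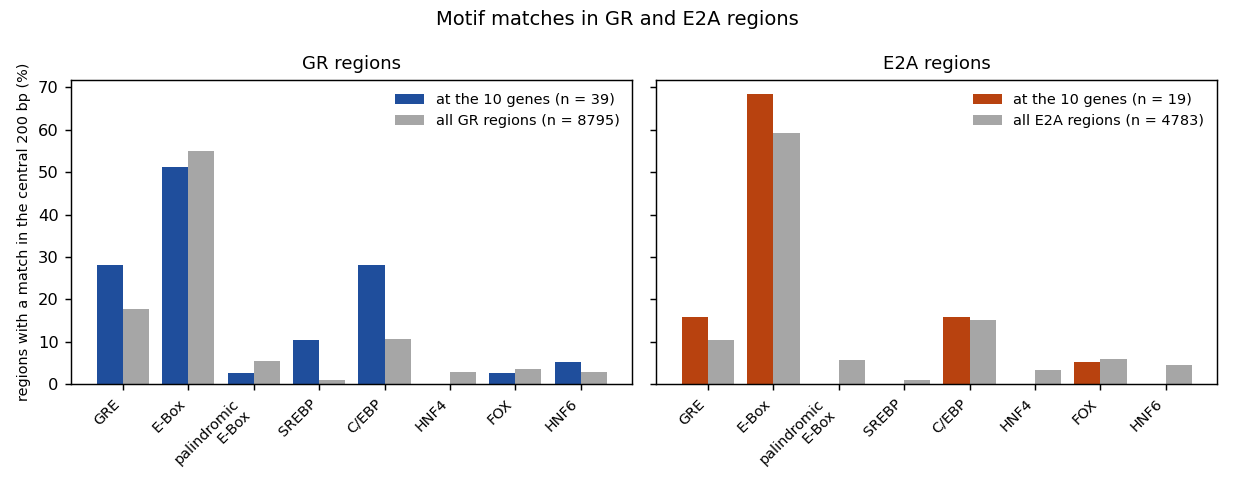
Share of regions with a motif match in their central 200 bp (y axis, %), for GR regions (left) and E2A regions (right), at the 10 genes (coloured) and over all regions of the ChIP (grey). At the 10 genes C/EBP-type letters reach 28.2% of GR regions against 10.7% genome-wide and sterol-element (SREBP) letters 10.3% against 0.864%, whereas E-Boxes reach 51.3% and 68.4%, beside 55% and 59.3% of all GR and E2A regions. In GR regions not annotated as promoter (not drawn), C/EBP-type letters reach 31.2% against 16.9% genome-wide. E-Boxes reach 53.1% and 64.7% of such GR and E2A regions, beside 68.4% and 68.3% genome-wide.

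A list of 55 other genes of fatty acid and triglyceride metabolism gave a wider view of the pathway. GR peaks were found at 48 of them (87.3%, against 45.3% of all genes), E2A peaks at 40 (72.7%, against 30.1%) and a shared region at 30 (54.5%, against 20.3%). A GR region called in both replicates was found at 29 (52.7%, against 19.5%) and an E2A region called in both replicates at 14 (25.5%, against 10.5%). Annotated peaks in all 4 samples were found at 11 of the 55, at 0 of the 10 genes described above and at 581 of 21911 genes. Among the 11 are the acyl-CoA synthetase Acsl1, with 2 and 5 GR peaks and 4 and 1 E2A peaks annotated to it in replicates 1 and 2, and Mlxipl, which codes for the carbohydrate-responsive factor ChREBP, with 2 and 4 GR peaks and 4 and 2 E2A peaks. Insig1, whose product holds SREBP proteins in the endoplasmic reticulum, had 2 and 7 GR peaks and 2 and 1 E2A peaks. The others included the desaturase gene Fads2, the fatty acid transporter gene Slc27a2, the lipogenic gene Thrsp, the lipid droplet gene Cidec, the acyltransferase genes Agpat2 and Gpat4, and Pnpla3. At 13 of the 55 no peak was annotated in any sample, and 7 had no GR region by either rule.

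Genes of other lipid pathways were counted in the same way. Of 15 genes of cholesterol synthesis and uptake, 14 had a GR peak, 9 an E2A peak and 8 a shared region (93.3%, 60% and 53.3%). Of 15 genes of fatty acid oxidation and fasting, 14 had a GR peak, 13 an E2A peak and 11 a shared region (93.3%, 86.7% and 73.3%). The 10 synthesis genes had 10, 10 and 8, and the shares over all genes were 45.3%, 30.1% and 20.3%. With 10 to 15 genes in a list, these shares were not tested against each other.

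**Figure D5:**
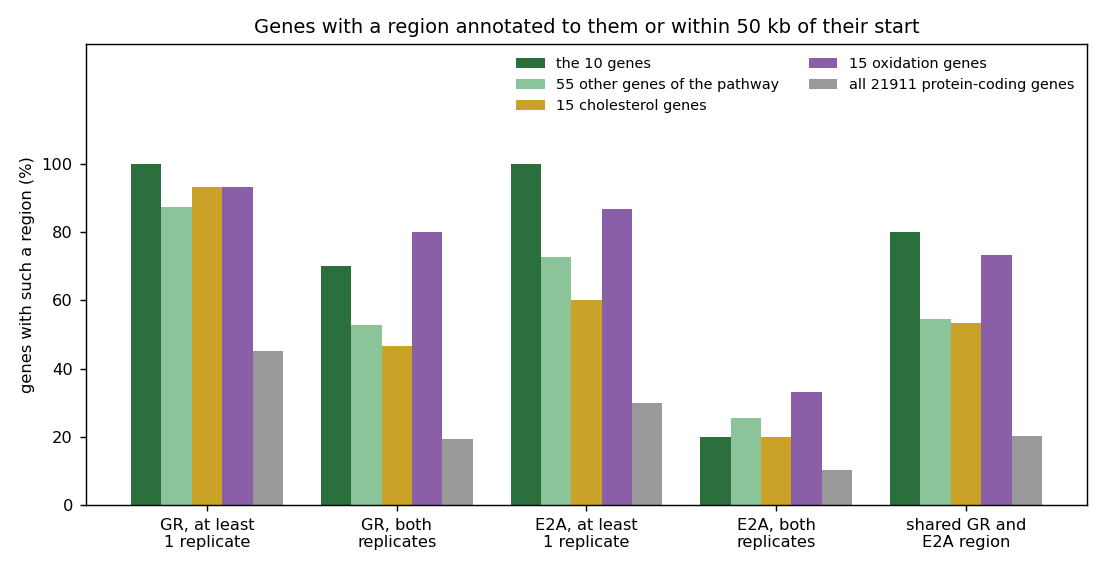
Share of genes (y axis, %) with a region annotated to them or within 50 kb of their start, by kind of region and gene list. All 4 lists lie above the grey bar of all genes for every kind of region, and for the shared regions the 10 genes reach 80.0%, the oxidation genes 73.3%, the other pathway genes 54.5%, the cholesterol genes 53.3% and all genes 20.3%.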

How the data were processed

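Called peaks of 2 GR and 2 E2A ChIP-Seq libraries from wild-type livers were analysed. The authors mapped the reads with BWA-MEM (mm10), discarded duplicates and pairs without a unique position, drew 18 mio pairs per GR library and 22 mio per E2A library and ran MACS2 on each sample (versions per the labels: BWA 0.7.13, Picard 1.119, MACS2 2.1.0, whereas the study's methods name later versions of Picard and MACS2). The control, the threshold and the annotation tool are not given in the sources used here. The deposited values are positions and widths in bp, distances in bp and gene features, with no normalization. Interval files of the same peaks hold no scores above 0. How many reads stand behind a peak is unknown, and Wilson intervals cover counting error only. GR replicate numbers follow the labels, since the list names give them the other way round.

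Peaks sharing at least 1 bp were merged. Genes and their starts were taken from GENCODE M21 (mm10), in which 5885 of the 6521 annotated symbols were found as protein-coding genes, and sequence from GRCm38.p6 and RefSeq. Printed windows of 200 bases lie at the centre of the bases common to all calls of a place. Shares were set beside those over all genes or regions, without a test. The exact permutation test compared samples. The genes named are the 10 members and, of the 55 pathway genes, those annotated in all 4 samples, at most 10 by their number of regions. The members and lists were chosen with earlier results of these data known. Alternatives changed the overlap, window, peak width, assignment and motif window and left out each replicate. Functions were tested on simulated data. Python 3.11.15, numpy 2.4.6, pandas 2.3.3, scipy 1.17.1, pysam 0.24.0 and matplotlib 3.10.9 were used.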

Additional observations from a re-analysis of the deposited data

How the results depend on the processing

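All 10 genes had a GR peak under the alternatives tried, except that 8 had one without GR replicate 2 or with wide peaks only. Wide peaks, those at least as wide as the median of their sample, left 4 genes with a shared region, 20 GR regions and 30.8% of E2A regions meeting GR. Leaving out each replicate in turn gave 2 to 10 genes with an E2A peak, 2 to 8 with a shared region, 25 to 39 GR regions, 2 to 19 E2A regions, 22 to 40 pathway genes with an E2A peak, 5.13 to 28.1% of GR regions meeting E2A and 26.3 to 100% of E2A regions meeting GR. The low counts and shares with E2A came without E2A replicate 1, and the low GR counts and the 26.3% without GR replicate 2. With 400 bp at the centre, 76.9% of GR regions at the 10 genes held CANNTG, beside 78.1% genome-wide. ACANNNTGT was held by 10.3% (13.7% genome-wide) and TGTTTAC by 12.8% (6.50% genome-wide). A GRE match was found in 43.6% (29.3 to 59.0%), against 27.7% genome-wide. Of the E2A regions called in both replicates, 0.00% held a GRE match and 100% held CANNTG, which is 0 and 2 of 2. With the replicate number as a block, the difference in peaks per 1000 is 2.21 by construction, so it is no check of that value. The block test gave the smallest p it can give (exact permutation, p = 0.5). GR and E2A were made from the same livers according to the study, but the labels do not say that equal numbers mark the same animal. Regions outside promoters and the distance from any transcript start were added as alternatives after seeing the data.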
